A study of Mus musculus with 14 samples.

Results

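The platelet-derived growth factor (PDGF) axis was followed in mouse kidneys through its 4 ligand genes, Pdgfa, Pdgfb, Pdgfc and Pdgfd, and its 2 receptor genes, Pdgfra and Pdgfrb. These 6 genes were taken by symbol, not by their values, from 24411 genes counted by bulk RNA sequencing. All 6 passed the filter on low counts, as did 14300 genes in all. The kidneys came from male C57/B6 mice aged 8 weeks, with no engineered allele named in the labels. The libraries were made at day 0 (n = 4) and at day 1 and day 3 after renal ischemia/reperfusion injury (IRI), in which the blood supply of the kidney is stopped and then restored (n = 5 each). The day 0 libraries carry names that mark them as controls, and whether those mice had a sham operation is not given in the sources used here. Nothing in the labels says that the libraries of a day came from separate animals, so p-values measure the spread between these libraries.

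PDGFs are paired-chain growth factors that act on receptor tyrosine kinases. PDGF-A binds the alpha receptor and PDGF-B binds both receptors, and these chains are cut by furin-like proteases inside the cell that makes them. PDGF-C and PDGF-D are secreted in a latent form and are freed outside the cell, by tissue plasminogen activator and urokinase in particular, after which PDGF-C acts chiefly on the alpha receptor and PDGF-D on the beta receptor. In the kidney the receptors sit mainly on mesangial cells, pericytes, vascular smooth muscle and interstitial fibroblasts, and PDGF-B from endothelium is needed for mesangial cells to form in glomeruli.

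Each library held between 12485579 and 20476979 reads on genes, so that the 6 genes had from 33 reads, for Pdgfd in 1 day 1 library, upwards. Levels are given as read counts scaled to library size as CPM and corrected by the trimmed mean of M values (TMM), and a change was called at an adjusted p under 0.05 in edgeR's quasi-likelihood test over all 14300 genes. All 8 proximal tubule markers were detected, with a summed level of 39412 to 42991 CPM at day 0, 18161 to 44707 CPM at day 1 and 9084 to 18065 CPM at day 3. Most of this sum was Kap, at 29692 ± 1987 CPM (SD, n = 4) at day 0, and of the 8 markers 3 were called lower and 0 higher on each later day. Of 6 tubular injury markers, 5 were higher than at day 0 on both later days. The library numbers in the deposited files are written with 1 digit for day 0, for day 1 replicates 3, 4 and 5 and for day 3 replicates 4 and 5, and with 3 digits for the others. The meaning of this number format is not given, and since day 0 has only 1-digit libraries, 3-digit format and injury cannot be told apart against day 0. Fewer cells of a type and less RNA per cell cannot be told apart in bulk tissue either.

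Between day 0 and day 1, 5 of the 6 genes changed: Pdgfa, Pdgfb and Pdgfrb rose and Pdgfc and Pdgfd fell. The count dropped to 3 without day 0 replicate 1, 2 or 3 or day 1 replicate 3, 4 or 5, each of which ended the Pdgfc and Pdgfd calls. Over all genes tested, 42.1% changed in this comparison, 23.3% higher and 18.7% lower. At day 3, 4 of the 6 differed from day 0, with Pdgfa, Pdgfra and Pdgfrb higher and Pdgfc lower, against 33.3% of all genes (19.5% higher, 13.8% lower). From day 1 to day 3, 2 of the 6 fell, Pdgfa and Pdgfb, and none rose, against 15.9% of all genes (8.52% higher, 7.39% lower). This count was 1 without day 0 replicate 1 or 3, day 1 replicate 3, 4 or 5 or day 3 replicate 1, 3 or 4. The libraries of the groups did not overlap for 5 of the 6 genes between day 1 and day 0, for 2 between day 3 and day 0 and for 1 between day 3 and day 1. The same held for 42.0%, 33.4% and 7.61% of all genes. Both comparisons with day 0 share the same 4 day 0 libraries.

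**Figure D1:**
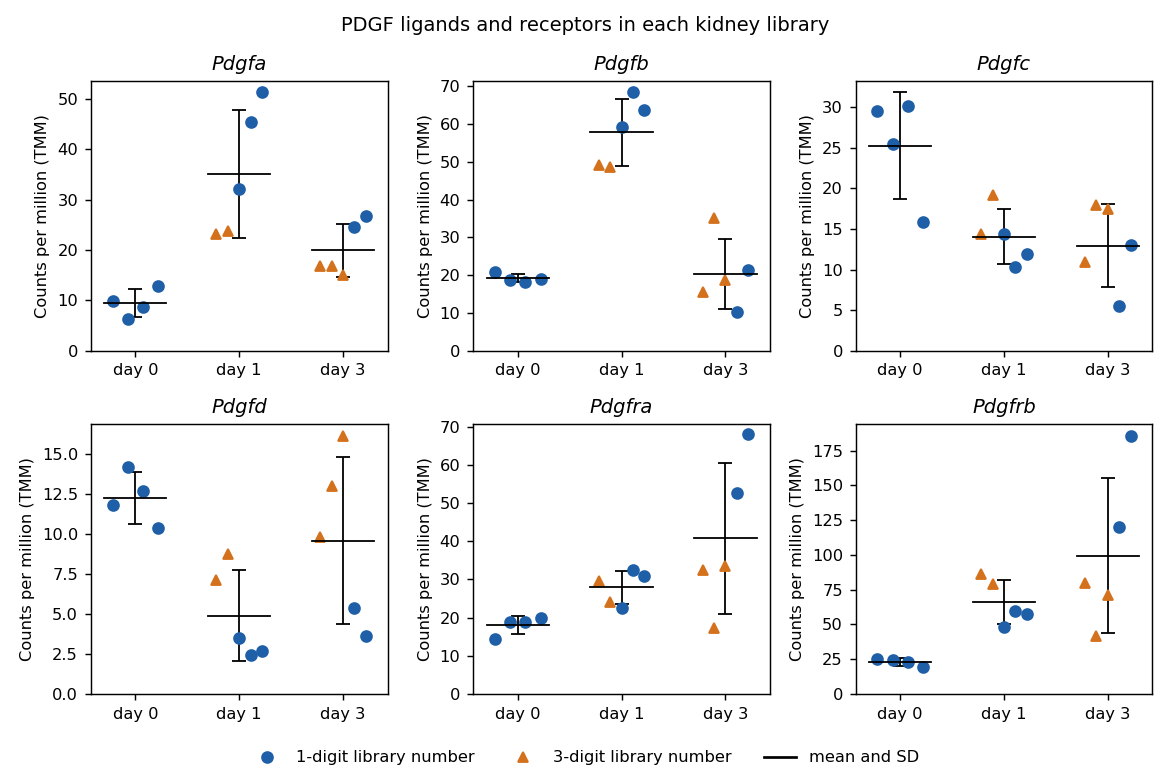
CPM of each gene in each of the 14 libraries (points), by day, with the mean and SD of the day in black; circles mark libraries with a 1-digit number and triangles those with a 3-digit number. Pdgfb at day 1 lies above both other days, and the day 3 libraries of Pdgfra and Pdgfrb spread from 17.3 to 68.0 CPM and from 41.3 to 186 CPM.

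Pdgfa, the gene of the PDGF-A chain, lies on the minus strand at chr5:138976014-138997370 (ENSMUSG00000025856.15, GRCm38, GENCODE M21), with 7 annotated transcripts. It was measured at 9.89, 6.23, 8.78 and 12.9 CPM in the day 0 libraries, at 23.1, 23.8, 32.0, 45.5 and 51.3 CPM at day 1 and at 16.7, 16.9, 15.0, 24.5 and 26.7 CPM at day 3. Every library of days 1 and 3 lay above every day 0 library. Pdgfa rose 3.72-fold by day 1 (log2 fold change 1.89 ± 0.29 SE, adjusted p = 0.000307), which was higher than the change of 94.8% of the genes tested. At day 3 it was still 2.11-fold above day 0 (log2 1.08 ± 0.29, adjusted p = 0.0112). The fall from day 1 to day 3 was 1.76-fold (log2 -0.82 ± 0.26, adjusted p = 0.0473), and the libraries of these 2 days overlapped. This fall lost its call in 9 of 14 fits that left out 1 library (day 0 replicate 1 or 3, day 1 replicate 3, 4 or 5, or day 3 replicate 1, 2, 3 or 4; highest adjusted p 0.130, without day 1 replicate 5) and when only days 1 and 3 were fitted (adjusted p = 0.0834).

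RefSeq promoter sequences were used for Pdgfa, Pdgfc, Pdgfd and Pdgfra; those of Pdgfb and Pdgfrb were not analysed here. Each entry runs from 250 bases before the start of transcription to 50 bases after it on GRCm38.p6. The entries were searched on both strands for the GC box GGGCGG, the binding sequence of SP1, and for GCGNGGGCG, the binding motif of the early growth response factor EGR1. Of 32851 promoter entries of this length, 35.7% held the GC box and 5.55% the EGR1 motif. Pdgfa has 2 entries, shown here because it was the ligand with the largest rise at day 1, and capitals mark the GC boxes. The first, at chr5:138994232-138994531, held 1 GC box and 67.0% G and C. The other, at chr5:138994895-138995194, held 2 GC boxes, read on the opposite strand as CCGCCC, and 73.3% G and C. Both lie above the upper quartile of all entries (61.7%), and neither held the EGR1 motif. The sequences are printed 5′ to 3′ on the minus strand.
Pdgfa, start nearer the gene body: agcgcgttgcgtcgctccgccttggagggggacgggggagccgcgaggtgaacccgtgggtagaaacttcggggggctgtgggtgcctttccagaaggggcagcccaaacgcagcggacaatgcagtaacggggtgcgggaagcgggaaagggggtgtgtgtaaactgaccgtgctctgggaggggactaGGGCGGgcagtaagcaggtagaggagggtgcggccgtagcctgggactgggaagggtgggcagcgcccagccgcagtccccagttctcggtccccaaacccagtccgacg
Pdgfa, start farther upstream: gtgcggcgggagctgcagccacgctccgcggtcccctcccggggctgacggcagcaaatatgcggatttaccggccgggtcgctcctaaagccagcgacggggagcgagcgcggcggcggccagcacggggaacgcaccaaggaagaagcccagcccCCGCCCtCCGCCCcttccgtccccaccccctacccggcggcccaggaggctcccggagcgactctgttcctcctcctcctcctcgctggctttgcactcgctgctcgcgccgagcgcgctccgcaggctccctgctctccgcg

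Pdgfb encodes the PDGF-B chain and lies on the minus strand at chr15:79995874-80014977 (ENSMUSG00000000489.7). It had 20.8, 18.6, 18.3 and 18.9 CPM at day 0, 49.1, 48.6, 59.1, 68.5 and 63.8 CPM at day 1 and 15.6, 35.2, 18.9, 10.3 and 21.4 CPM at day 3. The day 1 libraries lay above all others, and the day 3 libraries fell on both sides of the day 0 level. Pdgfb rose 3.02-fold at day 1 (log2 1.59 ± 0.27, adjusted p = 0.000522) and fell 2.85-fold from day 1 to day 3 (log2 -1.51 ± 0.25, adjusted p = 0.00290). At day 3 it did not differ detectably from day 0 (log2 0.08 ± 0.26, adjusted p = 0.829). Of the 6 genes it was the only one whose day 1 and day 3 libraries did not overlap.

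Marker transcripts of cell types that can make PDGF-B are given beside Pdgfb, and their part in its result was not tested. Summed over 9 endothelial markers, the level was 409 to 518 CPM at day 0, 504 to 654 CPM at day 1 and 255 to 1029 CPM at day 3. At day 3 the sum was 255 to 445 CPM in the 3-digit and 654 to 1029 CPM in the 1-digit libraries. Of the 9 markers, 2 were higher at day 1 than at day 0, Cdh5 (log2 1.54) and Egfl7 (1.50), and 2 were lower, Tek (-1.52) and Ehd3 (-0.95). At day 3, edgeR's quasi-likelihood test over all libraries called 0 of the 9 (1 at an unadjusted p under 0.05), whereas 7 were higher and 0 lower when 1-digit libraries alone were set against day 0. Platelet and megakaryocyte markers summed to 5.52 to 6.69 CPM at day 0, 7.49 to 24.4 CPM at day 1 and 11.3 to 24.2 CPM at day 3. Of the 6, only 3 had enough counts to be tested, and 2 of these, Pf4 and Ppbp, were higher and 0 lower on each later day. Pf4, a chemokine stored in platelets, averaged 0.403 ± 0.179 CPM (SD, n = 4) at day 0, 4.14 ± 2.94 CPM (n = 5) at day 1 and 7.67 ± 2.72 CPM (n = 5) at day 3 (log2 3.33 and 4.23 over day 0). When 1-digit libraries alone were set against day 0, all 3 tested platelet markers were higher at day 1. Macrophage markers summed to 48.5 to 126 CPM at day 0, 51.5 to 121 CPM at day 1 and 86.9 to 425 CPM at day 3. Of the 8, 1 was higher at day 1 (Cd68, log2 3.57) and 3 were higher at day 3 (Cd68, 3.53; Lyz2, 2.00; Mrc1, 1.98), with 0 lower on either day. The day 3 sum was 215 to 425 CPM in the 3-digit and 86.9 to 110 CPM in the 1-digit libraries. Among 1-digit libraries set against day 0, 1 macrophage marker was higher and 3 were lower at day 1. At day 3, 1 was higher and 2 were lower. Of all genes, 42.1% were called at day 1 and 33.3% at day 3. Where 1-digit libraries alone were set against day 0, the shares were 58.5% and 53.7%.

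Pdgfc, the gene of the PDGF-C chain, lies on the plus strand at chr3:81036416-81214040 (ENSMUSG00000028019.9). Its levels were 29.6, 25.5, 30.2 and 15.8 CPM at day 0, 14.4, 19.2, 14.4, 10.3 and 11.9 CPM at day 1 and 10.9, 18.0, 17.4, 5.51 and 13.0 CPM at day 3. Replicate 4 of day 0 was the low library of its group and fell within the range of both later days. Summed over 6 urothelium markers, which mark the lining of the renal pelvis, that library held 71.8 CPM. The other day 0 libraries held 1.76 to 12.1 CPM, and the part of this in the Pdgfc result was not tested. Pdgfc fell 1.80-fold at day 1 (log2 -0.84 ± 0.30, adjusted p = 0.0353) and was 1.95-fold below day 0 at day 3 (log2 -0.96 ± 0.30, adjusted p = 0.0244). Between day 3 and day 1 the difference was log2 -0.12 ± 0.29 (adjusted p = 0.808). Leaving out day 0 replicate 1, 2 or 3 or day 1 replicate 3, 4 or 5 ended the day 1 call (highest adjusted p 0.0965, without day 0 replicate 3), and leaving out day 0 replicate 1, 2 or 3 or day 3 replicate 1 ended the day 3 call (highest adjusted p 0.0729, without day 0 replicate 3). Its promoter entry at chr3:81036166-81036465, printed on the plus strand, held neither motif and 55.0% G and C.
Pdgfc: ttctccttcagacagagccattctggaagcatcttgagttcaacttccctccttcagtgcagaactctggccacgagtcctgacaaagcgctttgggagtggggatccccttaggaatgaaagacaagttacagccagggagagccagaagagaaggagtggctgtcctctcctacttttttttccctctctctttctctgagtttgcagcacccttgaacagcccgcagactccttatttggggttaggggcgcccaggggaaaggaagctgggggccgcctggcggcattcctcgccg

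Pdgfd encodes the PDGF-D chain and lies on the plus strand at chr9:6168584-6378850 (ENSMUSG00000032006.15). It was counted at 11.8, 14.2, 12.7 and 10.3 CPM at day 0, at 7.11, 8.72, 3.47, 2.46 and 2.65 CPM at day 1 and at 9.77, 13.0, 16.1, 5.38 and 3.60 CPM at day 3. All day 1 libraries lay below all day 0 libraries, whereas the day 3 libraries lay on both sides of them. Pdgfd fell 2.49-fold at day 1 (log2 -1.32 ± 0.44, adjusted p = 0.0273), lower than all but 6.30% of the genes tested. The call was lost without day 0 replicate 1, 2 or 3 or day 1 replicate 3, 4 or 5, with log2 values from -1.34 to -1.14 and a highest adjusted p of 0.0649. At day 3 the difference from day 0 was log2 -0.35 ± 0.44 (adjusted p = 0.555), and from day 1 it was 0.97 ± 0.42 (adjusted p = 0.129), which passed the test without day 1 replicate 2 (log2 1.28, adjusted p = 0.0433) or day 3 replicate 5 (log2 1.15, adjusted p = 0.0490). On days 1 and 3 the 3-digit libraries held the higher Pdgfd levels. Pdgfd was lower at day 3 than at day 0 with the number format as a term in the fit (log2 -1.43, adjusted p = 0.000356) and when the 3-digit libraries were left out (log2 -1.43, adjusted p = 0.000722), but stood at log2 0.08 when instead the 1-digit libraries of both later days were left out (adjusted p = 0.766). Its promoter entry at chr9:6168236-6168535, on the plus strand, held neither motif and 56.7% G and C, and is printed as that of the ligand with the largest fall at day 1.
Pdgfd: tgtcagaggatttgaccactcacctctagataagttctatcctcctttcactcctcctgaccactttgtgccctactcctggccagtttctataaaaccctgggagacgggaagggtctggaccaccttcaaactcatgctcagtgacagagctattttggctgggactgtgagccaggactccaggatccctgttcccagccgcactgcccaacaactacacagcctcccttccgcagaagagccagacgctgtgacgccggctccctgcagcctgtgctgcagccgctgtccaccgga

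Pdgfra, the alpha receptor, lies on the plus strand at chr5:75152292-75198215 (ENSMUSG00000029231.15). It had 14.5, 18.9, 18.9 and 20.0 CPM at day 0, 29.6, 24.2, 22.5, 32.5 and 31.0 CPM at day 1 and 32.4, 17.3, 33.5, 52.6 and 68.0 CPM at day 3. The day 1 libraries all lay above the day 0 libraries, and 1 of the 5 day 3 libraries, replicate 2, fell within the day 0 range. At day 1 Pdgfra stood at log2 0.63 ± 0.30 over day 0 without passing the test (adjusted p = 0.0982). It passed with days 0 and 1 fitted alone (log2 0.64, adjusted p = 0.00837), with the number format as a term (log2 0.89, adjusted p = 0.0112), without day 3 replicate 2 (log2 0.63, adjusted p = 0.0314) and without day 3 replicate 5 (log2 0.66, adjusted p = 0.0463). At day 3 it was 2.25-fold above day 0 (log2 1.17 ± 0.30, adjusted p = 0.00902), a call lost when the later days were represented by their 3-digit libraries alone (log2 0.62, adjusted p = 0.0555). From day 1 to day 3 the difference was log2 0.54 ± 0.27 (adjusted p = 0.187), which passed the test without day 3 replicate 2 (log2 0.74, adjusted p = 0.0337). The Pdgfra promoter entry at chr5:75152001-75152300, on the plus strand and not printed, held neither motif and 51.0% G and C. No link between promoter motifs and changes in level was tested.

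The beta receptor gene, Pdgfrb, lies on the plus strand of chromosome 18 (ENSMUSG00000024620.11, 24 exons in its longest annotated form). Its levels were 25.1, 24.6, 22.8 and 19.2 CPM at day 0, 86.4, 79.0, 47.8, 59.4 and 57.6 CPM at day 1 and 79.9, 41.3, 70.9, 120 and 186 CPM at day 3. No library of days 1 and 3 came down to the day 0 range. Pdgfrb rose 2.88-fold at day 1 (log2 1.53 ± 0.34, adjusted p = 0.00321) and stood 4.33-fold above day 0 at day 3 (log2 2.12 ± 0.35, adjusted p = 0.000670), the largest change of the 6 genes on that day. Between day 3 and day 1 the difference was log2 0.59 ± 0.31 (adjusted p = 0.201), with the highest and the lowest library of the later 2 days both at day 3.

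**Figure D2:**
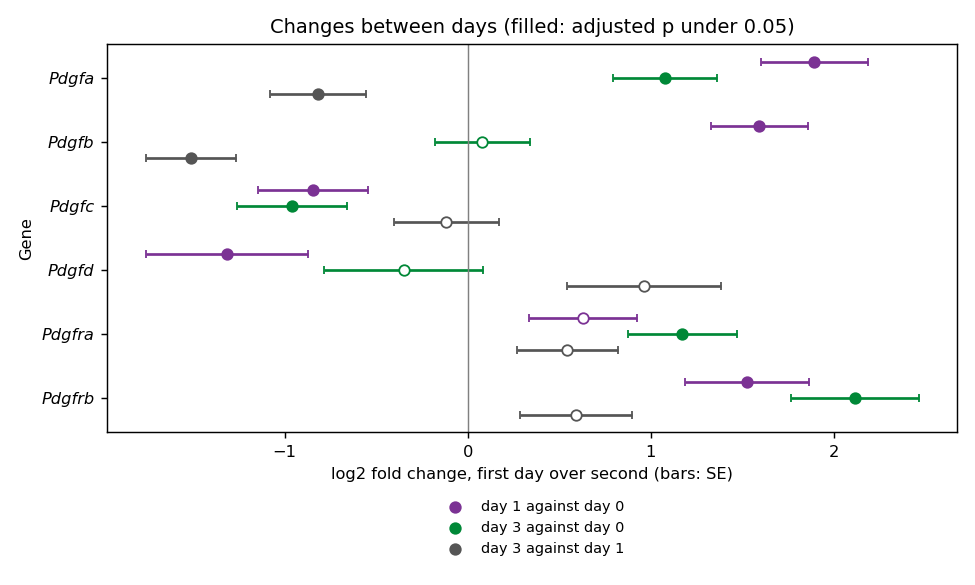
log2 fold changes of the 6 genes between days, with SE bars; filled points passed edgeR's quasi-likelihood test at an adjusted p under 0.05. Pdgfa and Pdgfb lead at day 1 with 1.89 and 1.59, and Pdgfrb leads at day 3 with 2.12.

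Marker transcripts of cell types that can bear the receptors, and of podocytes, are given beside the receptor values, and their part in the receptor results was not tested. Summed over 10 fibroblast markers, the level was 111 to 121 CPM at day 0, 85.6 to 366 CPM at day 1 and 385 to 1009 CPM at day 3. Of these markers, 1 was higher and 1 lower at day 1, and 3 were higher and 0 lower at day 3. Those 3 were the collagen genes Col3a1, Col1a2 and Col1a1, which averaged 324, 227 and 98.7 CPM at day 3 and made up most of the sum, while the median change over the 10 markers was log2 0.72. The 10 pericyte and smooth muscle markers summed to 112 to 138 CPM at day 0, 195 to 513 CPM at day 1 and 244 to 998 CPM at day 3, with 3 higher and 1 lower at day 1 and 5 higher and 0 lower at day 3. Their median change was log2 0.28 at day 1 and 0.80 at day 3. Tagln and Acta2 led the day 3 sum, with means of 242 and 142 CPM. Rgs5 and Cspg4 averaged 12.3 and 23.9 CPM at day 0 and 14.6 and 24.0 CPM at day 3. Mesangial and juxtaglomerular markers summed to 28.4 to 39.1 CPM, 42.8 to 56.1 CPM and 38.2 to 62.5 CPM on the 3 days, with 2 of the 4 tested markers higher at day 1 and 1 at day 3 and 0 lower, and Ren1, the renin gene, was listed at 0 in every library. Whether this 0 reflects expression or the way reads were counted was not tested. Podocyte markers, which mark glomerular cells that cover the capillaries from outside, summed to 279 to 366 CPM, 338 to 459 CPM and 303 to 503 CPM, with 0 of 6 called at day 1 by edgeR's quasi-likelihood test (3 at an unadjusted p under 0.05) and 1 higher at day 3. Among 1-digit libraries set against day 0, 0 fibroblast markers were higher and 3 lower at day 1. At day 3, 3 were higher and 0 lower. Pericyte and smooth muscle markers had 3 higher and 3 lower at day 1, and 5 and 0 at day 3. Mesangial and juxtaglomerular markers had 3 and 0, then 1 and 1. Of all genes, 42.1% were called at day 1 and 33.3% at day 3, or 58.5% and 53.7% with 1-digit libraries alone.

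Divided by the merged exon length of each gene in GENCODE M21 (3.12 kb for Pdgfa to 10.02 kb for Pdgfra), levels can be set beside each other. The annotation used for the counts is not given in the sources used here, so these lengths may differ from those counted over. At day 0 the ligands lay close together, with Pdgfc at 4.97 ± 1.30 CPM per kb (SD, n = 4), Pdgfb at 4.60 ± 0.263, Pdgfd at 3.88 ± 0.511 and Pdgfa at 3.03 ± 0.882. Pdgfrb stood between Pdgfb and Pdgfd at 4.19 ± 0.489 CPM per kb and Pdgfra was lowest at 1.80 ± 0.244. The Pdgfra libraries all lay below those of Pdgfa, though by less than rounding shows (both 2.00 at their nearest), and the other neighbours in this order overlapped between libraries.

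At day 1 the order was led by Pdgfb at 13.9 ± 2.13 CPM per kb (SD, n = 5), Pdgfrb at 12.1 ± 2.93 and Pdgfa at 11.3 ± 4.09, whose ranges overlapped. Pdgfra at 2.79 ± 0.436, Pdgfc at 2.76 ± 0.664 and Pdgfd at 1.55 ± 0.904 formed the lower part of the order, below every library of the first 3. At day 3 Pdgfrb led with 18.2 ± 10.2 CPM per kb, followed by Pdgfa at 6.40 ± 1.67, Pdgfb at 4.87 ± 2.24, Pdgfra at 4.07 ± 1.97, Pdgfd at 3.04 ± 1.65 and Pdgfc at 2.55 ± 1.01. Neighbours in the day 3 order overlapped throughout, since the lowest Pdgfrb library (7.54) lay below the highest Pdgfa library (8.54).

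Per exon length, Pdgfa and Pdgfb together made up 40.5% to 57.6% of the 4 ligands' summed level at day 0, 74.7% to 91.7% at day 1 and 52.3% to 78.7% at day 3. The ligand sum itself was 16.5 ± 1.19 CPM per kb (n = 4) at day 0, 29.5 ± 4.75 (n = 5) at day 1 and 16.8 ± 3.30 (n = 5) at day 3. The mean sum of day 3 lay within the day 0 range. Pdgfa made up 18.5% ± 6.33 of the sum at day 0, 37.3% ± 7.68 at day 1 and 39.7% ± 14.8 at day 3. Pdgfd made up 23.6% ± 3.16 at day 0, 5.71% ± 3.98 at day 1 and 17.8% ± 8.39 at day 3. The ratio of Pdgfrb to Pdgfra per exon length was 2.38 ± 0.590 at day 0, 4.39 ± 1.20 at day 1 and 4.38 ± 0.419 at day 3, and no library of the later days (3.34 or more) came down to the day 0 range (3.17 or less). These shares and ratios are descriptions and were not tested.

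**Figure D3:**
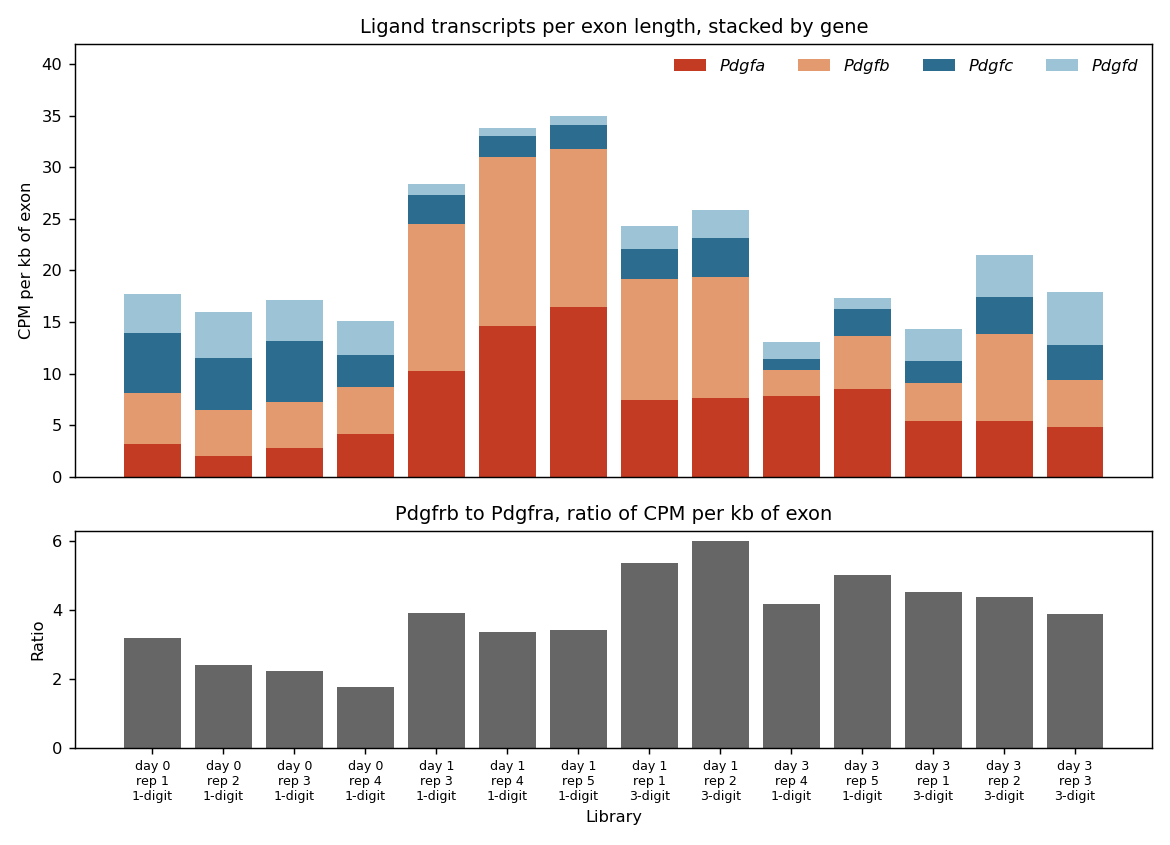
Upper panel, CPM per kb of merged exon of the 4 ligand genes, stacked for each library; lower panel, ratio of Pdgfrb to Pdgfra on the same scale. Libraries are ordered by day and, within a day, by number format; the stacks are tallest at day 1, between 24.3 and 35.0 CPM per kb.

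Within each day the libraries could also be compared by number format. At day 1, 2 of the 6 genes differed between 3-digit and 1-digit libraries, against 35.0% of all genes. Pdgfa was lower in the 3-digit libraries, at 23.1 and 23.8 CPM against 32.0 to 51.3 CPM (log2 -0.87 ± 0.25, adjusted p = 0.0169), a call lost without day 1 replicate 1, 2 or 5 (adjusted p = 0.0778, 0.0964 and 0.0586). Without replicate 1 or 2 a single 3-digit library of day 1 remained, and its spread was taken from the other groups. Pdgfd was higher, at 7.11 and 8.72 CPM against 2.46 to 3.47 CPM (log2 1.47 ± 0.27, adjusted p = 0.00153). At day 3, 3 of the 6 differed, against 18.5% of all genes. Pdgfd was again higher in the 3-digit libraries (log2 1.53 ± 0.27, adjusted p = 0.00568), and both receptors were lower, Pdgfra at 17.3 to 33.5 CPM against 52.6 and 68.0 CPM (log2 -1.12 ± 0.26, adjusted p = 0.0139) and Pdgfrb at 41.3 to 79.9 CPM against 120 and 186 CPM (log2 -1.25 ± 0.24, adjusted p = 0.00742). Without day 3 replicate 5, none of these 3 passed (adjusted p = 0.0834 for Pdgfd, 0.132 for Pdgfra and 0.104 for Pdgfrb), with the 1 remaining 1-digit library taken to vary as the other groups did.

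For Pdgfrb the format difference itself differed between the days. It was log2 0.59 ± 0.24 at day 1 (adjusted p = 0.0758; 0.0213 without day 3 replicate 2) and -1.25 ± 0.24 at day 3, a difference of 1.84 ± 0.34 (adjusted p = 0.00386). Of the 6 genes, Pdgfrb alone passed this test, against 17.6% of all genes, and Pdgfra came to 1.03 ± 0.36 (adjusted p = 0.0677). Pdgfra passed as well without day 3 replicate 1 (adjusted p = 0.0470) or 3 (adjusted p = 0.0474), and Pdgfb without day 3 replicate 5 (log2 -1.54, adjusted p = 0.0361). The pericyte and smooth muscle markers also split by number format, with day 1 sums of 440 to 513 CPM under a 3-digit and 195 to 267 CPM under a 1-digit number, and day 3 sums of 244 to 367 CPM and 783 to 998 CPM. Among the 10 markers, 6 passed the test as higher and 0 as lower with 3 digits at day 1, against 1 higher and 4 lower at day 3. The fibroblast markers had 5 of 10 higher and 0 lower with 3 digits at day 1 and 0 called at day 3 by edgeR's quasi-likelihood test (0 at an unadjusted p under 0.05), where their median was log2 0.42. Of the 9 endothelial markers, 3 were higher and 2 lower with 3 digits at day 1, and 0 were higher and 6 lower at day 3. The tubular injury sums turned in the same way as those of the pericyte markers, with 29963 to 35179 CPM under a 3-digit and 7239 to 14808 CPM under a 1-digit number at day 1, and 5850 to 31399 CPM and 34962 to 43143 CPM at day 3. Of the 6 injury markers, 2 were higher and 0 lower with 3 digits at day 1, and 0 were higher and 1 lower at day 3. The proximal tubule markers turned the other way, with 0 of 8 higher and 3 lower at day 1 and 3 higher and 0 lower at day 3, and for 5 of the 8 the format difference was lower at day 1 than at day 3 by the test of that change (median log2 -2.73). Of the 8 macrophage markers, 1 was higher and 0 lower with 3 digits at day 1, and 5 were higher and 1 lower at day 3. Of the 6 urothelium markers, 3 were higher and 0 lower with 3 digits at day 1. At day 3, edgeR's quasi-likelihood test called 0 of them (1 at an unadjusted p under 0.05). Their day 1 sum was 114 CPM in replicate 2 and 18.4 CPM in replicate 1, against 1.23 to 5.79 CPM in the 1-digit libraries. It was also 71.8 CPM in day 0 replicate 4 and 49.7 CPM in day 3 replicate 4, both 1-digit. Of all genes, 35.0% were called by format at day 1 and 18.5% at day 3, and some of these marker counts lie near those shares. The part of these transcripts in the Pdgfrb difference was not tested.

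**Figure D4:**
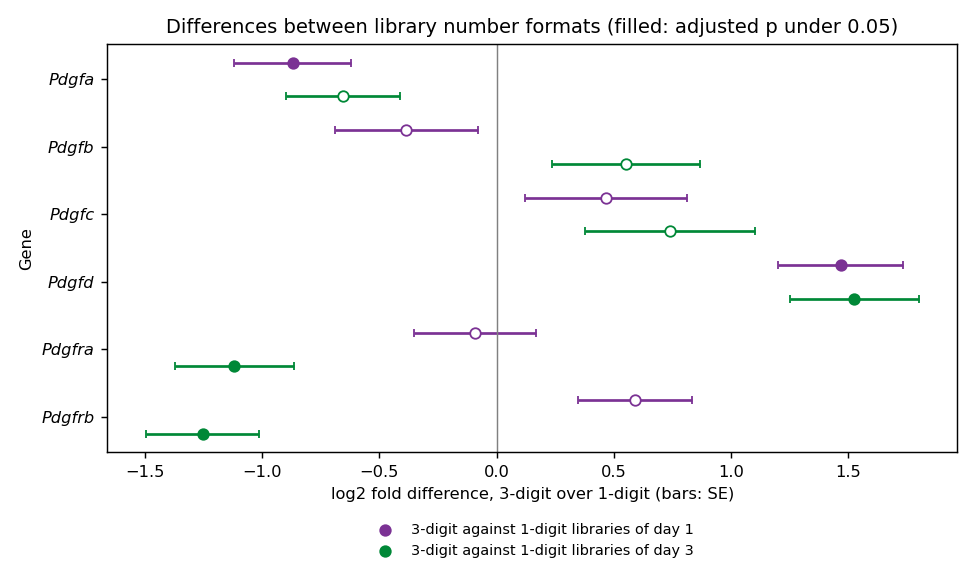
log2 difference between 3-digit and 1-digit libraries for each gene within day 1 and within day 3, with SE bars; filled points passed edgeR's quasi-likelihood test at an adjusted p under 0.05. Pdgfd lies at 1.47 and 1.53 on the 2 days, while Pdgfrb lies at 0.59 and -1.25.

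Restricted to the 1-digit libraries of days 1 and 3, which share their number format with day 0, all 6 genes differed between day 1 and day 0, against 58.5% of all genes. Pdgfa rose 4.54-fold, Pdgfb 3.33-fold, Pdgfrb 2.39-fold and Pdgfra 1.59-fold, while Pdgfc fell 2.07-fold and Pdgfd 4.28-fold (adjusted p from 3.93e-06 to 0.0188). In a separate fit with the 3-digit libraries in their place, the day 1 values were log2 1.32 for Pdgfa, 1.35 for Pdgfb, 1.85 for Pdgfrb and -0.62 for Pdgfd (adjusted p from 0.000254 to 0.0484), and 0.58 for Pdgfra and -0.58 for Pdgfc, which did not pass (adjusted p = 0.0880 and 0.134). The Pdgfra call among 1-digit libraries was lost without day 0 replicate 1 or day 1 replicate 4 or 5 (adjusted p = 0.0557, 0.0793 and 0.0630). At day 3, 5 of the 6 differed from day 0, against 53.7% of all genes, with Pdgfrb 6.66-fold, Pdgfra 3.34-fold and Pdgfa 2.71-fold higher and Pdgfc 2.74-fold and Pdgfd 2.72-fold lower. In that separate fit with 3-digit libraries, Pdgfrb was at log2 1.48 and Pdgfa at 0.78 (adjusted p = 0.000744 and 0.0176), and the other 4 did not pass. Pdgfb was the exception among 1-digit libraries (log2 -0.28 ± 0.30, adjusted p = 0.451), and Pdgfc, at log2 -1.45 among them, depended on the day 3 library left out. Without day 3 replicate 4 its call was lost (log2 -0.96, adjusted p = 0.0555), and without replicate 5 it passed at log2 -2.17, each time with 1 such library of day 3 left and its spread taken from the other groups.

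From day 1 to day 3, 4 of the 6 changed among the 1-digit libraries, against 32.0% of all genes. Pdgfb fell 4.04-fold (adjusted p = 0.000926) and Pdgfa 1.68-fold (adjusted p = 0.0358), while Pdgfrb rose 2.78-fold (adjusted p = 0.000932) and Pdgfra 2.10-fold (adjusted p = 0.00726). The Pdgfb fall, log2 -2.01, passed at -2.64 without day 3 replicate 5 and at -1.58 without day 3 replicate 4, with 1 such library of day 3 left and its spread taken from the other groups. Without day 3 replicate 5, Pdgfa and Pdgfra did not pass (adjusted p = 0.0876 and 0.0646), and Pdgfa did not pass without day 1 replicate 4 or 5 or day 3 replicate 4 either (highest adjusted p 0.164, without day 3 replicate 4). Among the 3-digit libraries 1 of the 6 changed, against 13.9% of all genes. It was Pdgfb, which fell 2.11-fold (log2 -1.08 ± 0.30, adjusted p = 0.0323), a call lost without day 1 replicate 1 or 2 or day 3 replicate 1 or 3 (adjusted p = 0.158, 0.114, 0.0639 and 0.0953). Without day 1 replicate 1 or 2, 1 such library of day 1 was left and took its spread from the other groups. Without day 3 replicate 1 it was Pdgfd that passed, as higher at day 3 (log2 0.88, adjusted p = 0.0324). In those libraries Pdgfrb differed by log2 -0.37 ± 0.24 (adjusted p = 0.336) and Pdgfra by 0.05 ± 0.26 (adjusted p = 0.920).

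The genes whose log2 CPM followed each of the 6 most closely over the 14 libraries were found by Pearson's r, as a description in which the libraries share their days and number formats. For Pdgfa they were Mphosph6 (r = 0.967), Ackr4 (0.965) and Gtf2f2 (0.963), and for Pdgfb they were Lsr (0.977), Phlda1 (0.966) and Nol9 (0.965). Pdgfc was followed by Atp6v1g2 (0.935), Pde1a (0.924) and Fam102b (0.919), the lowest values of r among the 6. For Pdgfd the nearest were Zkscan1 (0.977), Wrn (0.976) and Zdhhc17 (0.972). Pdgfra was followed by Fmnl3 (0.971), Slc43a3 (0.958) and Pde2a (0.953), and Pdgfrb by Fkbp10 (0.983), Serpine2 (0.974) and Mfge8 (0.974).

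Genes that act on the ligands before they reach a receptor were followed as a list of 10 activating proteases and binding proteins. At day 1, 4 of the 10 were higher and 1 lower than at day 0, with a median log2 change of 0.49 against 0.01 over all genes tested. At day 3, 3 were higher and 1 lower (median 0.62 against 0.05). These 5 and 4 calls among 10 genes lie near the 42.1% and 33.3% of all genes called on these days. Plat, the tissue plasminogen activator that frees PDGF-C, rose at day 1 (log2 1.76 ± 0.45, adjusted p = 0.00673), as did Plau, the urokinase gene (1.24 ± 0.27, adjusted p = 0.00284). The day 0 libraries of Plat ran from 38.1 to 147 CPM. Its day 1 libraries lay at 128 to 145 CPM with 3 digits and at 243 to 328 CPM with 1 digit. Plau then fell from day 1 to day 3 (log2 -1.39 ± 0.25, adjusted p = 0.00451). Sparc, a matrix protein that binds PDGF-B, was higher on both days (log2 1.60 and 2.09), as was St14, the protease matriptase (1.14 and 0.88). Lrp1, a scavenger receptor that associates with PDGFR-β, passed the test at day 3 (log2 1.44 ± 0.32, adjusted p = 0.00435), and Pcsk7, a furin-like protease, was lower on both days (-0.72 and -0.61). At day 3 Lrp1 averaged 156 CPM (n = 2) in the 1-digit and 64.6 CPM (n = 3) in the 3-digit libraries. By number format, 1 of the 10 was higher and 1 lower with 3 digits at day 1, against 35.0% of all genes. At day 3, 1 was higher and 3 were lower, against 18.5%.

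Downstream of the receptors, 19 adaptor, kinase and lipid-signalling genes that relay the signal were followed. At day 1, 4 were higher and 1 lower than at day 0, and at day 3, 3 were higher and 1 lower, with medians of 0.03 and -0.09 on the log2 scale. These 5 and 4 calls among 19 genes are a smaller share than the 42.1% and 33.3% of all genes called, a difference that was not tested. Among 1-digit libraries set against day 0, 7 were higher and 3 lower at day 1, against 58.5% of all genes. At day 3, 6 were higher and 4 lower in those libraries, against 53.7%. Src, a kinase that binds the activated receptor, was higher on both days (log2 1.61 ± 0.34, adjusted p = 0.00223, and 1.10 ± 0.33, adjusted p = 0.0215), as was the adaptor Shc1 (1.14 and 0.64). The adaptor Grb2 rose at day 1 (0.82 ± 0.23, adjusted p = 0.0114) and Plcg1, the receptor-bound phospholipase, was higher at day 3 (0.86 ± 0.23, adjusted p = 0.0117). The PI3-kinase subunits Pik3r2 at day 1 (-0.65) and Pik3ca at day 3 (-0.62) were the ones that fell. From day 1 to day 3 the PI3-kinase subunit Pik3cb fell by 0.68 on the log2 scale, the only one of the 19 to pass between these days. By number format, 4 of the 19 were higher and 10 lower in 3-digit than in 1-digit libraries at day 1, and 1 was higher and 3 lower at day 3, against 35.0% and 18.5% of all genes.

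Of 8 genes that end receptor signalling, ubiquitin ligases, phosphatases and an adaptor, 6 were higher and 0 lower at day 1 than at day 0 (median log2 0.91). At day 3, 4 were higher and 0 lower (median 0.52). Of all genes, 42.1% were called at day 1 (23.3% higher) and 33.3% at day 3 (19.5% higher). Among 1-digit libraries set against day 0, 6 brakes were higher at day 1 and all 8 at day 3, with 0 lower. Those comparisons called 58.5% and 53.7% of all genes. At day 1 the brakes summed to 358 to 366 CPM in the 3-digit and 528 to 598 CPM in the 1-digit libraries, against 249 to 258 CPM at day 0, and 7 of the 8 were lower in the 3-digit libraries (median log2 -0.71), against 35.0% of all genes called by format in either direction. At day 3, 1 of the 8 was lower in the 3-digit libraries, against 18.5%. Ptpn12, a phosphatase that acts on PDGFR-β, rose from 25.2 ± 1.14 CPM (n = 4) to 87.6 ± 31.2 CPM (n = 5) at day 1 (log2 1.80 ± 0.26, adjusted p = 0.000220) and stood at 50.1 ± 15.8 CPM at day 3 (0.99 ± 0.26, adjusted p = 0.0101). Ptpn2, another phosphatase, rose at day 1 (1.27 ± 0.20, adjusted p = 0.000362), as did the ubiquitin ligase Cblb (1.20 ± 0.29, adjusted p = 0.00511). The receptor-type phosphatase Ptprj was higher on both days (0.96 and 0.94). Cbl, the ubiquitin ligase that marks activated receptors for breakdown, was higher at day 3 (0.66 ± 0.23, adjusted p = 0.0422) and stood at -0.31 ± 0.23 at day 1 (adjusted p = 0.298). The adaptor Sh2b3 was higher on both days (0.86 and 0.56). Between day 1 and day 3, Cbl rose (log2 0.97), while Ptpn2 (-0.92) and Ptpn12 (-0.81) fell.

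Among the 5 VEGF ligands, the structural relatives of PDGF, 1 was higher and 2 were lower than at day 0 on each day, against the same 42.1% and 33.3% of all genes. Pgf, the placental growth factor, rose at day 1 (log2 3.92 ± 0.69, adjusted p = 0.000751) from 0.329 ± 0.0746 CPM (n = 4) to 5.12 ± 2.26 CPM (n = 5), and was at 2.73 ± 0.68 on the log2 scale at day 3 (adjusted p = 0.00775). Vegfa was lower at log2 -0.77 and -0.95 and Vegfb at -0.63 and -1.15. Of 7 genes of the related receptor kinases and their ligands, 6 could be tested, and 2 were higher and 2 lower on each day. The CSF1 receptor ligands Il34 (log2 2.93 at day 1 and 1.97 at day 3) and Csf1 (2.18 and 1.86) rose. Their receptor gene Csf1r fell, from 90.2 ± 6.41 CPM (n = 4) at day 0 to 28.8 ± 3.66 CPM (n = 5) at day 1 and 24.8 ± 10.5 CPM (n = 5) at day 3 (log2 -1.65 ± 0.24 and -1.86 ± 0.24, adjusted p = 0.000185 and 0.000123). Kit, the stem cell factor receptor, stood lower at log2 -0.67 and -0.80. From day 1 to day 3, Vegfd rose (log2 1.19), and Vegfb (-0.52) and Kitl, the Kit ligand (-0.61), fell.

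**Figure D5:**
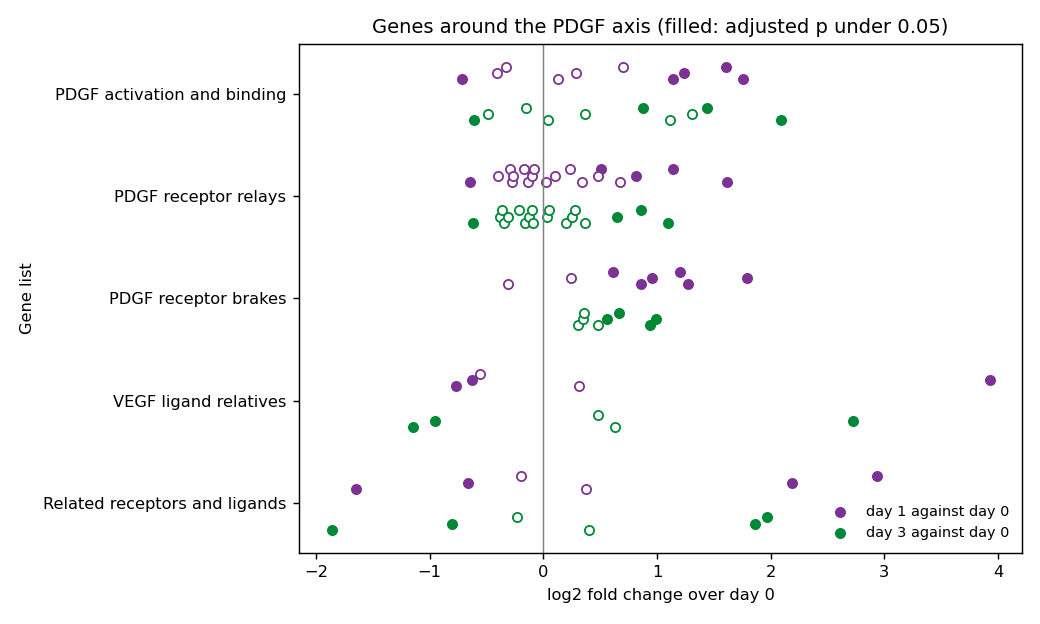
log2 fold change over day 0 of every tested gene in 5 lists around the PDGF axis, at day 1 and day 3; filled points passed edgeR's quasi-likelihood test at an adjusted p under 0.05, and both days share their day 0 libraries. The point farthest to the right is Pgf at day 1, at 3.92, and no brake gene was called lower.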

How the data were processed

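Total RNA was sequenced by bulk RNA-seq in 14 mouse kidney libraries (TRIzol, Illumina TruSeq). The authors trimmed reads with Trimmomatic and aligned them with STAR to mm10, per the submitters' processing notes; versions and annotation are not given in the sources used here. The deposited values are raw counts per gene, unstranded and per strand, of uniquely mapped reads, which lowers counts of genes with near-identical copies. Column 4 was used, since it held 98.5% to 98.7% of strand-assigned reads, and in GENCODE M21 antisense genes overlap 4 of the 6 genes. The 4 entries that name no gene (29.0% to 38.3% of reads) were left out. Genes were kept by filterByExpr (14300 of 24411), scaled by TMM and tested with edgeR 4.0.16 (quasi-likelihood, 1 term per day or per day and number format, all 14 libraries, Benjamini-Hochberg, R 4.3.3); SEs were derived from the F values, and the prior count of log2 CPM was 2. Fold changes are fitted, and means of CPM are arithmetic. Replicates of a day differed by more than counting error, at 5.69 to 228 for the chi-square value divided by its degrees of freedom. Tested on simulated data for day 1 against day 0 (14141 genes), 50 of 100 genes changed by log2 1 and 81 of 100 changed by log2 2 were recovered, with 5 false calls. The genes and lists were chosen with earlier results of these data known. 1 gene of the activation and binding list is not reported here and was left out of its counts. The text names the 6 genes, the 3 most similar genes of each and, per list and day comparison, up to 4 called genes with the largest change, plus genes chosen after their values were seen (Cdh5, Egfl7, Tek, Ehd3, Pf4, Ppbp, Cd68, Lyz2, Mrc1, Ren1, Pcsk7, Acta2, Tagln, Rgs5, Cspg4). Alternatives were the unstranded column, relative log expression (RLE) scaling, total counts, no filter, DESeq2 1.42.0, only the 2 days compared, a replicate block, a format term and leaving out each library; fits with 1 number format of days 1 and 3 were chosen after seeing the data. Gene models were GENCODE M21 and promoters RefSeq GRCm38.p6; figures were drawn with Python 3.11.15 and matplotlib 3.10.9.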

Additional observations from a re-analysis of the deposited data

Results flagged for a closer look

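For Pdgfrb, the difference between number formats was not the same at day 1 and day 3 by a test of that difference itself, as was the case for 17.6% of all genes tested; 1 of the 6 genes is near that share. Its 3-digit libraries lay above its 1-digit libraries at day 1 (79.0 and 86.4 CPM against 47.8 to 59.4 CPM) and below them at day 3 (41.3 to 79.9 CPM against 120 and 186 CPM). The format effect of day 1 minus that of day 3 was log2 1.84 ± 0.34 (SE; adjusted p = 0.00386, edgeR's quasi-likelihood test). It kept its call in every alternative run, without exception among those that left out 1 library. No library of the 6 genes stood apart from its group by Dixon's test in the 18 groups of 4 or 5 libraries examined (about 0.9 are expected by chance).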

How the results depend on the processing

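No change called with all libraries turned its direction under any setting run. Of calls gained with 1-digit libraries only, 2 had the other sign, uncalled, with 3-digit libraries only (Pdgfd at day 3, 0.08, and Pdgfrb from day 1 to day 3, -0.37). The replicate numbers do not pair the libraries (correlations of same-numbered libraries from -0.17 to 0.26), and a replicate block kept the counts of 5, 4 and 2 called genes. With total counts in place of TMM, which moved the median gene by log2 0.14 at day 3 against day 0 and by 0.15 against day 1, Pdgfc lost its calls at day 1 (-0.84) and day 3 (-0.80), and Pdgfa its fall from day 1 to day 3 (-0.64, leaving 1 call). With only the 2 days compared, Pdgfra at day 1 was called (0.64) and the Pdgfa fall was not (-0.82, leaving 1). With number format as a term, Pdgfra at day 1 (0.89), Pdgfd at day 3 (-1.43) and Pdgfd from day 1 to day 3 (0.68) were called. With only 1-digit libraries of days 1 and 3, calls were gained by Pdgfra at day 1 (0.70), Pdgfd at day 3 (-1.43), and Pdgfra (1.06) and Pdgfrb (1.46) from day 1 to day 3 (4 calls). With only 3-digit libraries, calls were lost by Pdgfc at day 1 (-0.58) and day 3 (-0.71), by Pdgfra at day 3 (0.62; 2 calls) and by Pdgfa from day 1 to day 3 (-0.54; 1 call). DESeq2 called 2 genes between the 3-digit libraries of days 3 and 1, adding Pdgfd (0.71). These causes were not tested.

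Leaving out 1 library gave 3 to 6 called genes at day 1, with Pdgfc at -1.01 to -0.75, Pdgfd at -1.63 to -1.14 and Pdgfra at 0.54 to 0.70. Pdgfc at day 3 ranged from -1.13 to -0.77. From day 1 to day 3 there were 1 to 3 calls, with Pdgfa at -0.96 to -0.64, Pdgfd at 0.69 to 1.28 and Pdgfra at 0.26 to 0.74. The format comparisons gave 1 to 3 calls within day 1, 0 to 3 within day 3, 1 to 2 for their difference, 2 to 4 between 1-digit and 0 to 1 between 3-digit libraries of days 3 and 1. Pdgfd had as few as 33 reads, in day 1 replicate 5, and each format had 2 or 3 libraries per day, which limits precision.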
